A study of Homo sapiens with 12 samples.

Results

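The aminoacyl-tRNA synthetase genes were followed in HCT 116p53-/- cells and in the derived cells labelled RPL3 KO, with vehicle or with Act D. The group had 37 genes of the 60617 gene identifiers in the count tables. It was chosen by family membership, with earlier results of these data known. Of the 37 genes, 19 encode cytosolic enzymes or their subunits, among them GARS1 and KARS1, whose products also serve mitochondria. A further 16 encode the mitochondrial enzymes, and AIMP1 and AIMP2 encode scaffold proteins that hold several cytosolic synthetases together. All 37 genes passed the filter on low counts and were among the 15692 genes tested, and the lowest count of a member in any library was 40 (PARS2).

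Aminoacyl-tRNA synthetases join each amino acid to its tRNA and so set the meaning of the codons. Most amino acids have 1 enzyme in the cytosol and another in the mitochondrion, both encoded in the nucleus, and the mitochondrial enzymes serve the translation of the few proteins of the mitochondrial genome. Many cytosolic synthetase genes are known targets of ATF4, the transcription factor that the integrated stress response turns on when amino acids are short, and 13 of the 19 were held on such a background list.

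The parent line, HCT 116p53-/-, comes from a human colon carcinoma and has no p53. Its sub-line uL3ΔHCT 116p53-/- is described by the study as stably silenced for uL3 and by the sample labels as a knockout of RPL3, the gene of this ribosomal protein. Each line was given vehicle, for which the labels give no duration, or 24 h of 5 nM Act D, a drug that at low dose blocks rRNA transcription. The 4 groups had 3 libraries each, labelled as biological replicates, and all cells lacked p53. Whether the sub-line was 1 clone is not given in the sources used here. Totals per library were between 10087925 and 21138886 expected counts, and levels are given as CPM, counts relative to the library total after TMM scaling, which evens out differences in composition.

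RPL3 was not lower in the libraries labelled RPL3 KO. It was at 1151, 1121 and 1141 CPM in HCT 116p53-/- with vehicle and at 1188, 1337 and 1202 CPM in the libraries labelled RPL3 KO, a log2 fold change of 0.13 ± 0.08 (adjusted p = 0.155). These libraries differed from HCT 116p53-/- in much else. Of the 9 colon epithelial markers, 6 of the 7 that could be tested were lower and 1 was higher, and their summed level was 2480 to 2682 CPM in HCT 116p53-/- and 1591 to 1784 CPM in the libraries labelled RPL3 KO. The adherens junction gene CDH1 was at 68.8, 64.3 and 67.3 CPM in HCT 116p53-/- with vehicle. In the vehicle libraries labelled RPL3 KO it was at 0.161, 0.701 and 0.473 CPM. Means with vehicle in the same order were 14.8 and 0.177 CPM for CDX2, and 605 and 840 CPM for KRT18, the marker that was higher. KRT20 was low in both lines, at 1.49, 1.08 and 0.643 CPM in HCT 116p53-/- with Act D and at 0 counts in the Act D libraries labelled RPL3 KO. The 5 fibroblast markers summed to 7.09 to 9.30 CPM and to 66.1 to 83.1 CPM, with 2 of the 3 tested higher. Fibroblast genes DCN and LUM were at 0 in HCT 116p53-/- with vehicle. DCN was also near 0 in the vehicle libraries labelled RPL3 KO, at 0, 0.05 and 0.203 CPM. The 3 leukocyte markers summed to 7.19 to 11.3 CPM and to 20.1 to 28.2 CPM, nearly all of it from CD68. CD68 had means of 9.30 and 24.8 CPM and PTPRC of 0.040 and 0.017 CPM, and CD3E was at 0 in all 4 groups. The 2 endothelial markers summed to 0.121 to 0.389 CPM and to 0.884 to 1.2 CPM, mostly from PECAM1. The higher sums thus rest on few genes of each list. A difference between the lines therefore cannot be told apart from any other difference between these cells, and the part of cell identity in the results was not tested.

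The promoters of the family were searched for the letters of CARE, the element that ATF4 is known to bind with C/EBP partners. The matches are shown since the genes that hold them are described as a group below. RefSeq windows of 300 bases (250 before the start site and 50 after it, GRCh38.p14) were held for 32 of the 37 genes, and VARS1, YARS1, LARS1, AARS2 and VARS2 had none. The letters TGATGNAA, read on both strands, were in 8 of the 32 genes, beside 4.46% of all 27305 genes with a window. Counted by window, they were in 8 of the 44 windows of members, beside 3.62% of all 35116 windows. The matches are in capitals with 10 bases on either side, 5′ to 3′ on the strand of the gene.
CARS1: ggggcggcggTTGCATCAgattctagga
TARS1: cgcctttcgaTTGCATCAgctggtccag
MARS1: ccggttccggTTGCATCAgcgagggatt
GARS1: tacgcggcgaTTTCATCAtgctccgagc
NARS1: ctacgctctcTGATGCAAcgccggaatc
AARS1: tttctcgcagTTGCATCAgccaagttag
IARS1: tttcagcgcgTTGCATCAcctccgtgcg
YARS2: tccacactgcTGATGGAAaaattaagtt
Their positions are CARS1 (chr11:3057408-3057435, -), TARS1 (chr5:33440957-33440984, +), MARS1 (chr12:57488054-57488081, +), GARS1 (chr7:30594835-30594862, +), NARS1 (chr18:57621805-57621832, -), AARS1 (chr16:70289676-70289703, -), IARS1 (chr9:92293693-92293720, -) and YARS2 (chr12:32756077-32756104, -). Of the holders, 7 were cytosolic and all 7 stood on the ATF4 background list, 10 of whose 13 genes had a window. In 6 of them the match was read as TTGCATCA or TGATGCAA, and GARS1 and YARS2 differed at the open position. A match of letters is a description and not a measured binding site.

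The E-box CACGTG, a palindrome bound by MYC, USF and TFE family factors, was in 5 of the 32 genes, beside 8.77% of all genes with a window, and in 6 of the 44 windows of members, beside 7.26% of all windows. These windows are shown because all 5 genes, 3 of them mitochondrial, differed between the lines in the same direction. They were thus picked on the calls described below, so the shared direction is not a separate result. A part of the element in it was not tested.
EARS2: gggagaagccCACGTGtgctattcca
CARS2: ctgggatgcaCACGTGcttcgctaac
MARS2: gcgcctctcaCACGTGctgtcagaac
IARS1: gttcgttttcCACGTGgaggcgcaaa
AIMP2: gggcgctggcCACGTGcaggtaggag
They lie at EARS2 (chr16:23557350-23557375, -), CARS2 (chr13:110706503-110706528, -), MARS2 (chr2:197705348-197705373, +), IARS1 (chr9:92293868-92293893, -) and AIMP2 (chr7:6009480-6009505, +). IARS1 held both elements, which did not overlap.

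Levels between genes were compared in TPM, the measure of the deposited files that is corrected for length. In HCT 116p53-/- with vehicle the 3 most abundant members were TARS1 at 84.4 ± 11.6 TPM (SD, n = 3), KARS1 at 83.6 ± 9.02 TPM and QARS1 at 82.7 ± 9.09 TPM, which did not differ beyond their spread. The 3 least abundant were the mitochondrial genes WARS2 at 2.77 ± 0.117 TPM, AARS2 at 3.42 ± 0.144 TPM and PARS2 at 3.65 ± 0.384 TPM. In the libraries labelled RPL3 KO with vehicle the order at the top was TARS1 at 137 ± 12.3 TPM, GARS1 at 90.6 ± 31.9 TPM and MARS1 at 81.8 ± 20.1 TPM. The libraries of TARS1 and GARS1 overlapped, as did those of GARS1 and MARS1. With Act D the top of the order was QARS1, KARS1 and TARS1 in HCT 116p53-/- and TARS1, WARS1 and GARS1 in the libraries labelled RPL3 KO. TPM depends on the abundance of a few RNAs, since the 7SL RNA gene RN7SL1 took 12.4% to 19.8% of it, so the tests below use counts.

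The first question was how the lines differed without drug. With vehicle, 24 of the 37 genes differed between the lines, 11 up and 13 down in the libraries labelled RPL3 KO, beside 71.3% of all tested genes (35.1% higher and 36.2% lower). The share of members called, 24 of 37, was thus no higher than that of the transcriptome, and the median of the members (-0.01 on the log2 scale) was close to that of all genes (-0.02). The direction differed by compartment: 9 cytosolic genes were up-regulated and 3 down-regulated with a median of 0.14, whereas 2 mitochondrial genes were up-regulated and 9 down-regulated with a median of -0.40. The difference between the compartments was not tested as a set. In bulk RNA, fewer cells with a transcript and less of it per cell cannot be told apart. With scaling by library size alone, which moved the median of all genes to -0.26, the family split 8 to 17, the cytosolic genes 7 to 6 and the mitochondrial genes 1 to 10. The 13 genes that did not pass the test had log2 fold changes from -0.17 (QARS1) to 0.28 (FARS2).

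The cytosolic genes with the largest increase were CARS1, WARS1, TARS1 and, at a smaller size, MARS1. CARS1, the cysteinyl enzyme (chr11:3000922-3057613, minus strand, hg38), was at 53.5, 49.8 and 50.4 CPM in HCT 116p53-/- and at 179.5, 168 and 151 CPM in the libraries labelled RPL3 KO, 3.24-fold higher (log2 fold change 1.70 ± 0.09, adjusted p = 9.69e-12). All 3 libraries labelled RPL3 KO lay far above all 3 of HCT 116p53-/-. WARS1, the tryptophanyl enzyme, also known as an interferon-induced gene (chr14:100333790-100376805, minus strand), was at 90.7, 86.0 and 82.2 and at 217, 259 and 241 CPM, 2.77-fold higher (log2 fold change 1.47 ± 0.08, adjusted p = 2.19e-11). TARS1, the threonyl enzyme (chr5:33440696-33468091, plus strand), was at 229, 208 and 195 and at 473, 516 and 471 CPM, 2.31-fold higher (log2 fold change 1.21 ± 0.09, adjusted p = 2.13e-09). The groups of all 3 genes were apart by more than the spread within either group.

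MARS1, the methionyl enzyme and a subunit of the multi-synthetase complex, was at 149, 153 and 147 and at 325, 258 and 246 CPM (log2 fold change 0.88 ± 0.09, adjusted p = 1.11e-07). Its first vehicle library labelled RPL3 KO stood above the other two. The glycyl gene GARS1 (log2 fold change 0.65 ± 0.10), the seryl gene SARS1 (0.55 ± 0.08), the asparaginyl gene NARS1 (0.45 ± 0.09) and the leucyl gene LARS1 (0.36 ± 0.08) were up-regulated with smaller changes. The cytosolic genes that were lower were the valyl gene VARS1, the isoleucyl gene IARS1 and FARSA, the catalytic subunit of the phenylalanyl enzyme. VARS1 (chr6:31777518-31795752, minus strand) was at 189, 222 and 239 and at 148, 112 and 115 CPM, 1.73-fold lower (log2 fold change -0.79 ± 0.11, adjusted p = 2.49e-06). IARS1 was at 474, 431 and 445 and at 266, 278 and 278 CPM, 1.64-fold lower (log2 fold change -0.72 ± 0.07, adjusted p = 1.05e-07). FARSA was 1.45-fold lower, while FARSB, which encodes the other subunit of the same enzyme, was at 97.7 ± 12.9 and 96.9 ± 4.23 CPM (log2 fold change -0.01 ± 0.09, adjusted p = 0.914).

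Among the mitochondrial genes EARS2, the glutamyl enzyme (chr16:23520754-23557731, minus strand), had the largest decrease. It was at 71.4, 69.7 and 70.7 CPM in HCT 116p53-/- and at 21.8, 21 and 20.3 CPM in the libraries labelled RPL3 KO, 3.36-fold lower (log2 fold change -1.75 ± 0.08, adjusted p = 2.25e-12). CARS2, the mitochondrial cysteinyl enzyme (chr13:110641412-110713603, minus strand), was at 38.9, 38.0 and 35.1 and at 17.1, 17.2 and 18.0 CPM, 2.14-fold lower (log2 fold change -1.10 ± 0.09, adjusted p = 6.42e-09). In both genes the values within a group lay close together and the groups were far apart. PARS2, the prolyl enzyme, was a low gene at 11.2, 10.4 and 10.4 and at 6.35, 5.40 and 3.58 CPM (log2 fold change -1.07 ± 0.20, adjusted p = 0.000153). VARS2, the valyl enzyme (chr6:30914205-30926459, plus strand), was at 25.4, 28.6 and 24.6 and at 14.8, 12.4 and 11.8 CPM (log2 fold change -1.02 ± 0.12, adjusted p = 7.32e-07). HARS2, SARS2, LARS2, MARS2 and YARS2 were also lower, with log2 fold changes from -0.86 (HARS2) to -0.32 (YARS2).

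TARS2 stood against the other mitochondrial genes and had the largest increase of the family. The mitochondrial threonyl gene (chr1:150487414-150507602, plus strand) was at 11.3, 9.57 and 8.76 CPM in HCT 116p53-/- and at 36.5, 33.4 and 33.7 CPM in the libraries labelled RPL3 KO, 3.49-fold higher (log2 fold change 1.80 ± 0.12, adjusted p = 1.48e-10). The only other mitochondrial gene that was up-regulated was NARS2, at 33.8, 33.7 and 33.9 and at 43.1, 50.9 and 44.8 CPM (log2 fold change 0.45 ± 0.09, adjusted p = 0.000144). NARS2 and LARS1 lost this call when counts were scaled by library size alone. AIMP2 was lower, at 41.6, 44.6 and 41.1 and at 34.3, 29.9 and 33.8 CPM (log2 fold change -0.38 ± 0.10, adjusted p = 0.00176), and AIMP1 was at 49.7 ± 4.52 and 53.7 ± 7.46 CPM (log2 fold change 0.12 ± 0.10, adjusted p = 0.325).

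Summed over the 19 cytosolic genes, the level with vehicle was 3310.3, 3178 and 3158 CPM in HCT 116p53-/- and 4046, 3954 and 3734 CPM in the libraries labelled RPL3 KO. Over the 16 mitochondrial genes it was 665, 643 and 639.6 and 499, 519 and 508 CPM. The cytosolic sum was higher and the mitochondrial sum lower in every library labelled RPL3 KO, with no overlap in either. These sums are after TMM scaling and were not recomputed under another scaling. With scaling by library size alone the median of all genes moved from -0.02 to -0.26. The cytosolic calls then split 7 to 6 in place of 9 to 3, so the higher cytosolic sum depends on the scaling chosen. The groups did not overlap for 25 of the 37 single genes, beside 72.5% of all tested genes.

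**Figure D1:**
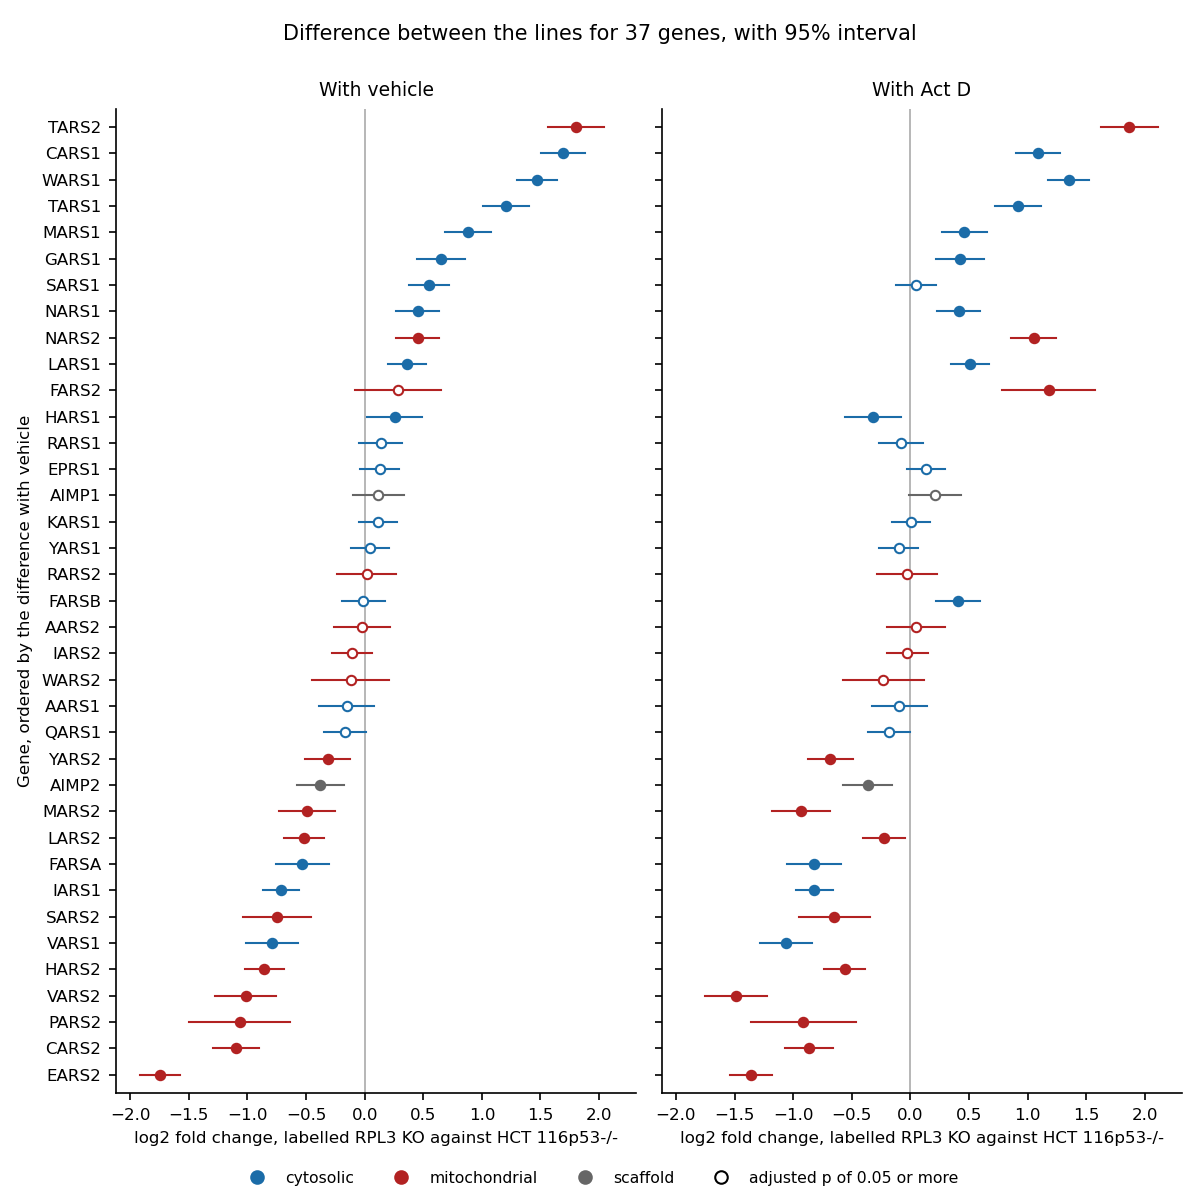
Log2 fold change between the lines for the 37 genes with vehicle (left) and with Act D (right), with points for the estimates and lines for the 95% intervals. Colours give the compartment and open points an adjusted p of 0.05 or more. With vehicle the range was from -1.75 for EARS2 to 1.80 for TARS2, and most of the lowest genes were mitochondrial.

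Setting each cytosolic gene beside the mitochondrial gene for the same amino acid gave 13 pairs. With vehicle both genes were called in 8 pairs. They went in opposite directions in 5 (cysteine, histidine, leucine, methionine and serine) and in the same direction in 3 (asparagine, threonine and valine). Of all tested genes 71.3% were called, 35.1% higher and 36.2% lower, so both outcomes are common for any 2 genes. The pair counts were not tested against pairs of other genes. In all 5 opposite pairs the cytosolic gene was higher and the mitochondrial gene lower in the libraries labelled RPL3 KO. The cysteine pair was the widest, with log2 fold changes of 1.70 for CARS1 and -1.10 for CARS2. In the histidine pair the call of HARS1 was lost in several settings, as described with that locus. Of the other pairs, exactly 1 gene was called in 3 (tryptophan, tyrosine and isoleucine), among them WARS1 against WARS2 at 7.6 ± 0.489 and 6.96 ± 0.619 CPM (log2 fold change -0.12 ± 0.16, adjusted p = 0.5).

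**Figure D2:**
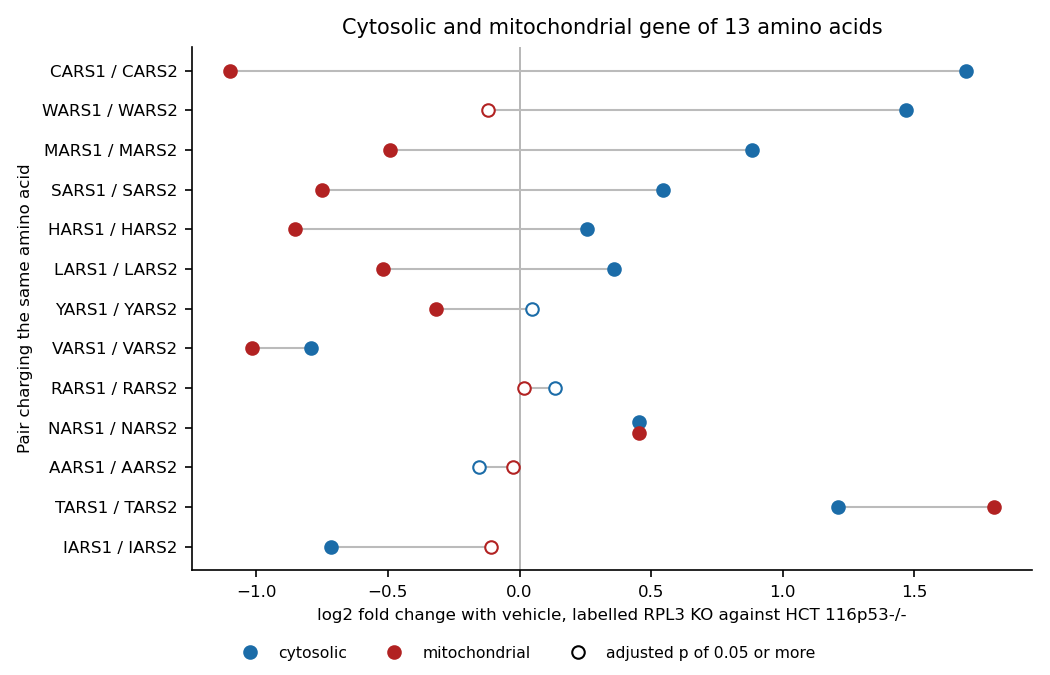
Log2 fold change between the lines with vehicle for the cytosolic (blue) and mitochondrial (red) gene of 13 amino acids, with open points for an adjusted p of 0.05 or more. The pairs are ordered by the difference, from cysteine (1.70 and -1.10) at the top to isoleucine (-0.72 and -0.11) at the bottom, and the asparagine points are set apart vertically because both lie at 0.45.

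The holders of the elements in the promoters were set beside these calls as a description. Of the 8 members with CARE, 5 were higher with vehicle (CARS1, GARS1, MARS1, NARS1 and TARS1), IARS1 and YARS2 were lower, and AARS1 was at 116 ± 7.0 and 104 ± 20.2 CPM (adjusted p = 0.219). Their median was 0.55, beside 0.23 for all 316 tested genes with CARE in a window, of which 45.3% were higher and 30.1% lower. Among the 24 members with a window and no match 5 were higher and 9 lower. All 5 members with the E-box, shown for this reason, were lower with vehicle and with Act D. Of all 1382 tested genes with the E-box 33.6% were higher and 39.4% lower with vehicle. These shares were near the 36.6% and 36.9% of all 11325 tested genes with a window. Of the 13 cytosolic genes on the ATF4 background list, 8 were higher and 2 lower (IARS1 and VARS1), with a median of 0.45. The list was written with earlier results of these data known. Of the 6 cytosolic genes outside the list, 1 was higher and 1 lower. Among all tested genes the shares were 35.1% higher and 36.2% lower. Of the 9 genes of the multi-synthetase complex, LARS1 and MARS1 were higher and IARS1 and AIMP2 lower. Synthetases fall into class I and class II by the fold of their catalytic domain, and of the 18 class I genes 4 were higher and 8 lower, whereas of the 16 class II genes 7 were higher and 4 lower.

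With Act D in both lines, 25 genes differed between them, 11 up and 14 down in the libraries labelled RPL3 KO, beside 70.4% of all tested genes (35.1% higher and 35.3% lower). By compartment, 8 cytosolic genes were higher and 4 lower, and 3 mitochondrial genes were higher and 9 lower. With scaling by library size alone the family split 7 to 22 in place of 11 to 14, with a shift of all genes to -0.26. TARS2 was again the highest, at 9.47, 11.3 and 10.3 CPM in HCT 116p53-/- and at 38.9, 35.3 and 39.2 CPM in the libraries labelled RPL3 KO, 3.65-fold higher (log2 fold change 1.87 ± 0.12, adjusted p = 1.29e-10). WARS1 followed at 91.4, 92.6 and 93.2 and 233, 227 and 247 CPM (log2 fold change 1.35 ± 0.08, adjusted p = 8.75e-11). For neither gene did the distance between the lines pass the test for a change with Act D (difference 0.07 ± 0.16 for TARS2 and -0.12 ± 0.11 for WARS1).

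FARS2 and NARS2 joined the highest genes with Act D. FARS2, the mitochondrial phenylalanyl enzyme (chr6:5261044-5829192, plus strand), was at 5.05, 4.4 and 4.83 CPM in HCT 116p53-/- and at 11.7, 8.68 and 11.8 CPM in the libraries labelled RPL3 KO, 2.26-fold higher (log2 fold change 1.18 ± 0.19, adjusted p = 2.13e-05). With vehicle it had been at 8.62, 6.40 and 8.09 and 7.55, 11.3 and 9.05 CPM, where the groups overlapped (adjusted p = 0.153). CARS1 remained higher at 47.3, 53.2 and 44.4 and 104, 100.5 and 104 CPM, 2.13-fold (log2 fold change 1.09 ± 0.09, adjusted p = 5.51e-09). The lowest genes were VARS2 at 35.7, 33.3 and 37.9 and 11.5, 11.9 and 15 CPM, 2.80-fold lower (log2 fold change -1.49 ± 0.13, adjusted p = 8.63e-09), and EARS2, 2.57-fold lower (log2 fold change -1.36 ± 0.08, adjusted p = 1.24e-10). They were followed by the cytosolic VARS1 at 255, 259 and 277 and 127, 122 and 129.5 CPM (log2 fold change -1.06 ± 0.11, adjusted p = 7.6e-08) and by MARS2 at 37.9, 35.2 and 34.8 and 18.0, 16.4 and 22.3 CPM (log2 fold change -0.93 ± 0.12, adjusted p = 1.41e-06). Both valyl genes were thus down-regulated in the libraries labelled RPL3 KO under either treatment.

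FARSB was called with Act D, at 81.5, 81.1 and 78.3 and 106, 107 and 106 CPM (log2 fold change 0.40 ± 0.09, adjusted p = 0.000571), while FARSA was lower (log2 fold change -0.82 ± 0.11, adjusted p = 2.54e-06), so that the genes of the 2 subunits of 1 enzyme differed in direction. FARSB lost its call with scaling by library size alone, as did GARS1, MARS1 and NARS1. AIMP2 was lower (log2 fold change -0.36 ± 0.10, adjusted p = 0.0035), and AIMP1 was at 51.9 ± 3.80 and 59.9 ± 1.39 CPM (adjusted p = 0.0873). The groups did not overlap for 28 of the 37 genes, beside 74.1% of all tested genes. Of the 13 pairs, both genes were called in 7. They went in opposite directions in 3 (cysteine, leucine and methionine) and in the same direction in 4 (asparagine, histidine, threonine and valine). These counts were not tested either, and 70.4% of all tested genes were called.

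**Figure D3:**
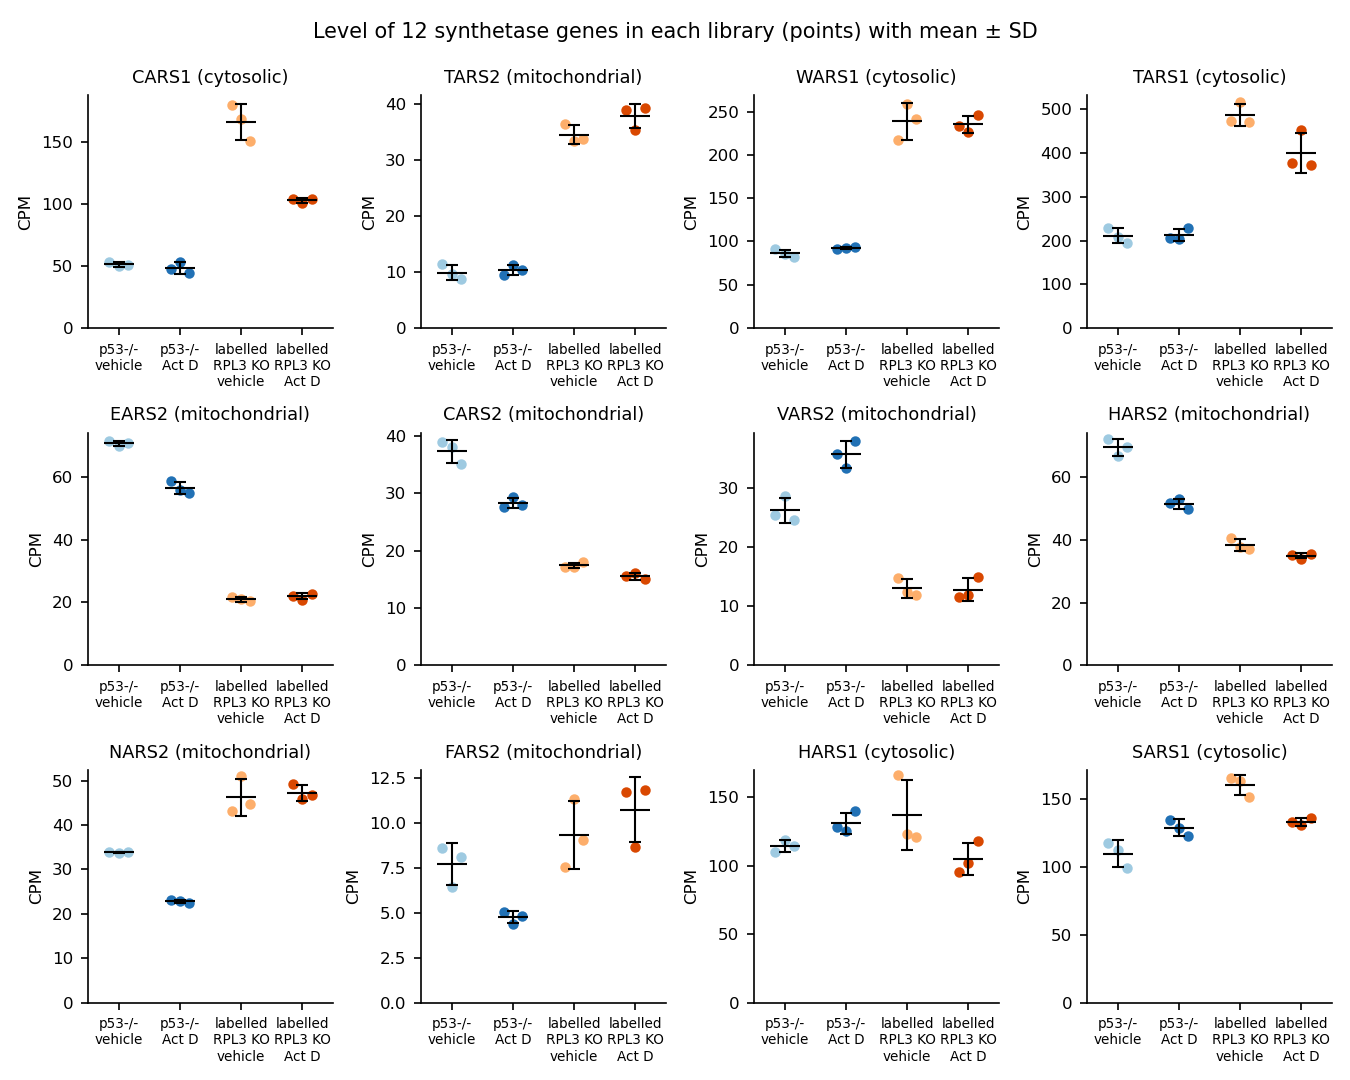
Levels of 12 synthetase genes in CPM, on axes that start at 0, with a point for each of the 3 libraries of the 4 groups and a horizontal line for the mean with its SD. CARS1 fell with Act D in the libraries labelled RPL3 KO, from between 151 and 179.5 CPM to between 100.5 and 104 CPM, and NARS2 fell in HCT 116p53-/-, from 33.7 to 33.9 CPM to between 22.5 and 23.0 CPM.

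The second question was how each line responded to Act D. Each group of libraries enters several comparisons, so that these are not independent. Fewer members were called than between the lines. In HCT 116p53-/- 9 of the 37 genes changed, 2 up and 7 down, beside 18.7% of all tested genes (7.59% up and 11.1% down). The share of members lay a little above this background, and the excess was not tested. Of these 9, 8 were mitochondrial: FARS2, NARS2, HARS2, CARS2, LARS2 and EARS2 fell, and VARS2 and YARS2 rose. The cytosolic change was that of FARSB, which fell from 113, 89.7 and 90.8 to 81.5, 81.1 and 78.3 CPM (log2 fold change -0.28 ± 0.09, adjusted p = 0.0328) and lost the call in several settings (adjusted p from 0.0122 to 0.194 over all alternatives). No change reached a log2 fold change of 1. With scaling by library size alone 9 genes fell and none rose, with upper-quartile scaling 6 fell and 5 rose, and with DESeq2 7 fell and 5 rose, in both cases with QARS1, SARS1 and VARS1 among those that rose.

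NARS2, the mitochondrial asparaginyl enzyme (chr11:78435620-78575194, minus strand), fell from 33.8, 33.7 and 33.9 to 23.0, 22.9 and 22.5 CPM, 1.48-fold (log2 fold change -0.57 ± 0.09, adjusted p = 0.000238). The spread within each group was under 1 CPM. FARS2 fell from 8.62, 6.40 and 8.09 to 5.05, 4.4 and 4.83 CPM, 1.62-fold (log2 fold change -0.70 ± 0.19, adjusted p = 0.014), and lost the call without vehicle library 1 or Act D library 2. HARS2, the mitochondrial histidyl enzyme, fell from 72.1, 66.7 and 69.5 to 51.7, 52.9 and 49.8 CPM (log2 fold change -0.43 ± 0.08, adjusted p = 0.00075). CARS2 fell from 38.9, 38.0 and 35.1 to 27.6, 29.3 and 27.9 CPM (log2 fold change -0.40 ± 0.09, adjusted p = 0.00444). LARS2, the leucyl enzyme (chr3:45388561-45554726, plus strand), fell from 61.0, 60.9 and 56.9 to 47.6, 44.9 and 45.5 CPM (log2 fold change -0.37 ± 0.08, adjusted p = 0.00374). EARS2 fell from 71.4, 69.7 and 70.7 to 58.7, 55.9 and 54.7 CPM (log2 fold change -0.32 ± 0.08, adjusted p = 0.00715), and lost the call without Act D library 3. In all 6 genes every Act D library lay below every vehicle library, and NARS2, HARS2, CARS2 and LARS2 passed an adjusted p of 0.05 in every setting that was run.

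VARS2 rose from 25.4, 28.6 and 24.6 to 35.7, 33.3 and 37.9 CPM, 1.36-fold (log2 fold change 0.44 ± 0.12, adjusted p = 0.0119), and its cytosolic counterpart VARS1 was at 189, 222 and 239 and 255, 259 and 277 CPM (log2 fold change 0.28 ± 0.10, adjusted p = 0.067). YARS2 rose from 49.9, 47.8 and 48.9 to 61.0, 61.2 and 53.5 CPM (log2 fold change 0.26 ± 0.09, adjusted p = 0.0485) and its cytosolic counterpart YARS1 was at 134 ± 5.51 and 123 ± 3.94 CPM (adjusted p = 0.284). The rise of YARS2 was close to the threshold and was lost in 3 other settings and when any 1 of 5 libraries was left out. The rise of VARS2 was lost with scaling by library size alone, and without vehicle library 3 or Act D library 3. The cytosolic counterparts of the genes that fell did not pass the test: CARS1 was at 53.5, 49.8 and 50.4 and 47.3, 53.2 and 44.4 CPM (adjusted p = 0.573), NARS1 at 172 ± 17.1 and 179 ± 6.91 CPM (0.693), and LARS1 at 189 ± 15 and 168 ± 6.63 CPM (0.13). The 2 scaffold genes did not pass it either, with AIMP1 at 51.9 ± 3.80 CPM with Act D (log2 fold change 0.06) and AIMP2 at 37.1 ± 1.57 CPM (-0.19). The summed mitochondrial level was 665, 643 and 639.6 CPM with vehicle and 617, 598 and 601 CPM with Act D, and the cytosolic sums overlapped between the groups. QARS1 (adjusted p = 0.0507), SARS1 (0.0559) and AARS1 (0.0624) were just outside the threshold. Groups did not overlap for 20 of the 37 genes, beside 38.2% of all tested genes.

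In the libraries labelled RPL3 KO 6 of the 37 genes changed with Act D, all down and all cytosolic, beside 11.9% of all tested genes (3.51% up and 8.4% down). Here too the small excess over the background was not tested. They were CARS1, MARS1, HARS1, RARS1, YARS1 and SARS1. Of the 16 mitochondrial genes 0 passed the test with edgeR's quasi-likelihood test and 0 with DESeq2, and 1 had an unadjusted p under 0.05. With upper-quartile scaling 2 genes fell and 1 rose (QARS1), and a fit of these 2 groups alone called 3 of the 37 genes.

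CARS1 fell from 179.5, 168 and 151 to 104, 100.5 and 104 CPM, 1.61-fold (log2 fold change -0.69 ± 0.09, adjusted p = 5.31e-05). Every Act D library lay below every vehicle library, and well above the libraries of HCT 116p53-/-. MARS1 fell from 325, 258 and 246 to 196, 192 and 204 CPM, 1.40-fold (log2 fold change -0.49 ± 0.09, adjusted p = 0.0017). CARS1 and MARS1 passed an adjusted p of 0.05 in every setting that was run. RARS1, the arginyl enzyme of the multi-synthetase complex, fell from 206, 196 and 179.9 to 145, 165 and 155 CPM (log2 fold change -0.32 ± 0.09, adjusted p = 0.0226), and lost the call with upper-quartile scaling and without vehicle library 1 or 2 or Act D library 1. HARS1 fell from 166, 123 and 121 to 95.3, 102 and 118 CPM (log2 fold change -0.38 ± 0.11, adjusted p = 0.0355), with vehicle library 1 above the other two. That library was also the highest of its group for AARS1, GARS1, MARS1 and RARS1. The count of called genes was 2 without it, 2 without Act D library 1 and 3 without vehicle library 2.

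The tyrosyl gene YARS1 (log2 fold change -0.27 ± 0.08, adjusted p = 0.0296) and the seryl gene SARS1 (log2 fold change -0.27 ± 0.08, adjusted p = 0.0392) fell by less, and leaving out any 1 of 5 libraries ended each call. TARS1, at 473, 516 and 471 and 377, 454 and 372 CPM, was just outside the threshold (log2 fold change -0.28 ± 0.09, adjusted p = 0.0576) and was called by DESeq2. Among the mitochondrial genes the interval of CARS2 was -0.38 to 0.04, that of HARS2 -0.31 to 0.03, that of NARS2 -0.15 to 0.21 and that of LARS2 -0.26 to 0.10 on the log2 scale. The interval of FARS2 was wider, -0.17 to 0.57, at 7.55, 11.3 and 9.05 and 11.7, 8.68 and 11.8 CPM. AIMP1 (log2 fold change 0.15) and AIMP2 (-0.17) did not pass the test. The summed cytosolic level was 4046, 3954 and 3734 CPM with vehicle and 3385, 3570.1 and 3515 CPM with Act D, every Act D library below every vehicle library, and the mitochondrial sums were 509 ± 10.3 and 512 ± 7.22 CPM. Groups did not overlap for 12 of the 37 genes, beside 27.6% of all tested genes.

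**Figure D4:**
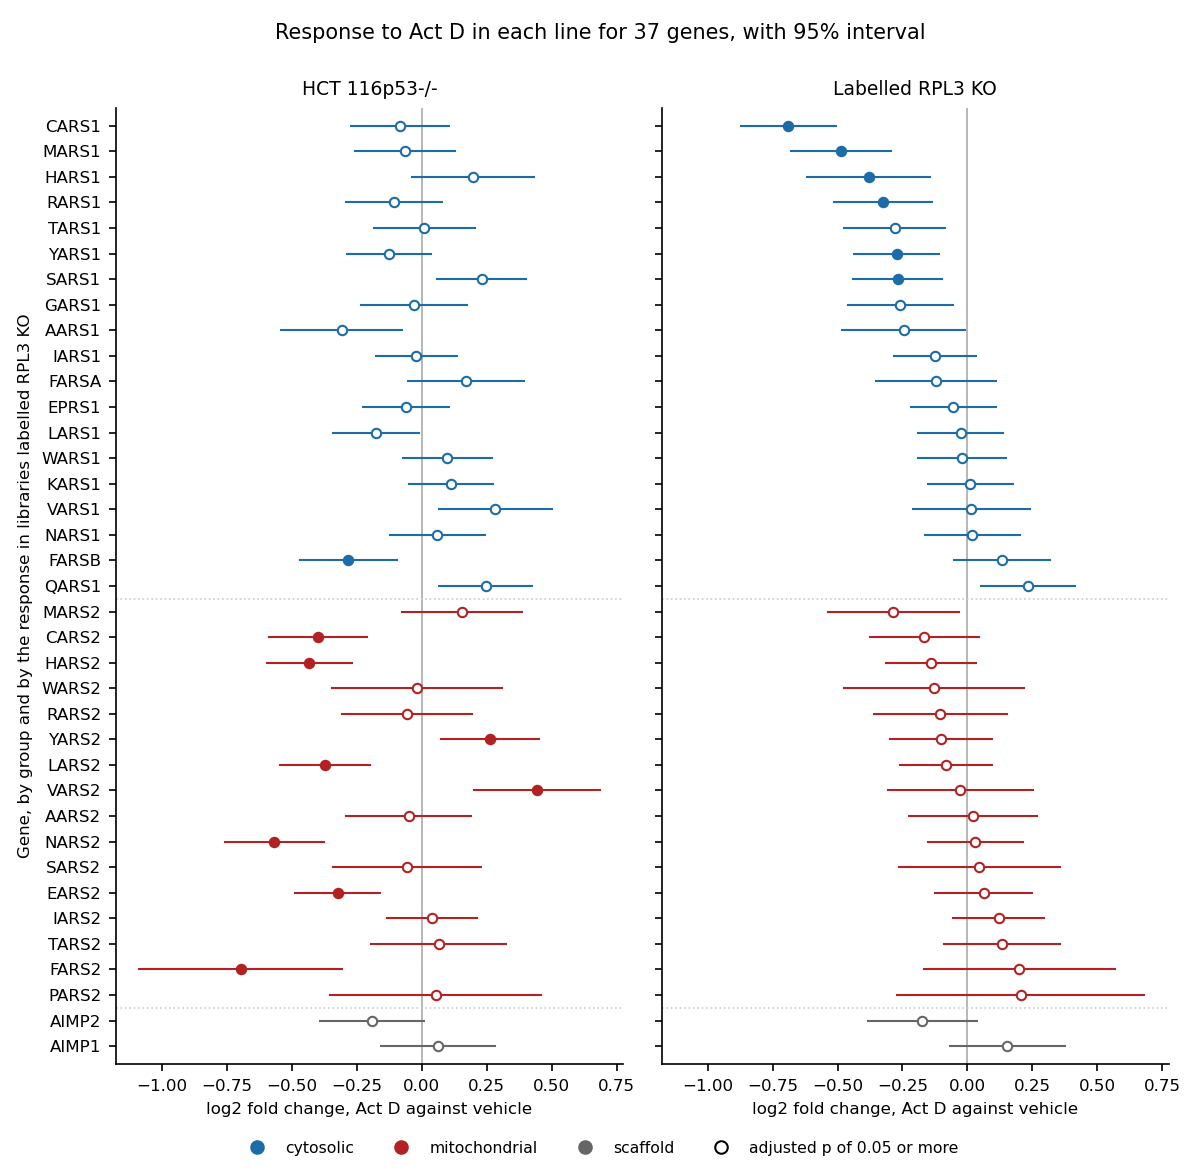
Log2 fold change with Act D for the 37 genes in HCT 116p53-/- (left) and in the libraries labelled RPL3 KO (right), with points for the estimates and lines for the 95% intervals. Filled points passed the test, 1 cytosolic and 8 mitochondrial genes at the left and 6 cytosolic genes at the right, and no estimate was beyond -0.70 or 0.44.

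A gene that passes the test in 1 line and not in the other need not respond differently, so the difference between the responses was tested for each gene. It was called for 5 of the 37 genes, beside 6.53% of all tested genes (3.3% with a higher and 3.23% with a lower response there). The response of NARS2 and FARS2 was higher and that of CARS1, HARS1 and SARS1 lower in the libraries labelled RPL3 KO. With upper-quartile scaling 4 were higher and 3 lower. The difference of log2 fold changes was 0.60 ± 0.13 for NARS2 (adjusted p = 0.00802) and -0.61 ± 0.12 for CARS1 (adjusted p = 0.00716). Both passed an adjusted p of 0.05 in every setting that was run. For FARS2 it was 0.90 ± 0.26 (adjusted p = 0.0432, from 0.0167 to 0.115 over all alternatives) and for HARS1 -0.58 ± 0.16 (adjusted p = 0.0366, from 0.00121 to 0.102), and leaving out any of 9 single libraries ended either call. For SARS1 it was -0.50 ± 0.12 (adjusted p = 0.0144), lost without Act D library 1 of HCT 116p53-/-.

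SARS1 was at 118, 113 and 99.1 CPM with vehicle and 135, 129 and 123 CPM with Act D in HCT 116p53-/-, and at 166, 164 and 152 and 133, 131 and 136 CPM in the libraries labelled RPL3 KO. The lines stood apart with vehicle, and with Act D they were within 0.05 on the log2 scale (interval -0.13 to 0.22). For the other genes that fell in 1 line, such as HARS2 (0.29 ± 0.11, adjusted p = 0.136), CARS2 (0.23 ± 0.13, 0.335), LARS2 (0.29 ± 0.12, 0.157), EARS2 (0.38 ± 0.12, 0.0591) and MARS1 (-0.42 ± 0.13, 0.061), the difference between the responses did not pass the test. Over the 19 cytosolic genes the difference was negative in 15 and over the 16 mitochondrial genes positive in 11, with medians of -0.15 and 0.09 beside -0.01 for all genes.

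The members that passed the test in no comparison were AARS1, EPRS1, KARS1, QARS1, AARS2, IARS2, RARS2, WARS2 and AIMP1. KARS1, the lysyl enzyme of both compartments, was at 217, 209 and 191 CPM in HCT 116p53-/- with vehicle and at 213, 239 and 215 CPM in the libraries labelled RPL3 KO, with an interval of the log2 fold change from -0.05 to 0.27. EPRS1, which charges both glutamate and proline, was at 332, 296 and 301 and 335, 354 and 326 CPM, with an interval from -0.04 to 0.29. The mitochondrial genes for these amino acids lay lower, EARS2 with an interval of -1.92 to -1.57 and PARS2 with -1.50 to -0.63. QARS1, the glutaminyl enzyme, was at 134, 141 and 149 and 124, 129.5 and 124 CPM, with an interval from -0.35 to 0.01. The interval of the isoleucyl gene IARS2 ran from -0.28 to 0.07 and that of the low gene WARS2 from -0.45 to 0.21. A change of either gene within its interval is not excluded.

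The histidine pair differs from the others in that its genes share a locus. HARS1 (chr5:140673035-140691537, minus strand) and HARS2 (chr5:140691430-140699305, plus strand) are read in opposite directions from start sites 85 bases apart in RefSeq, and their GENCODE annotations overlap by 108 bases. The counting used RSEM's standard parameters, which take no account of strand, so reads in the overlap cannot be told apart. RSEM's own estimate of the uncertainty from shared reads, its posterior SD, was small for both genes. It was at most 0.033% of the count for HARS1 and 0.354% for HARS2, in the 11 libraries given per gene. HARS2 was lower in the libraries labelled RPL3 KO under both treatments. HARS2 was at 72.1, 66.7 and 69.5 CPM in HCT 116p53-/- with vehicle and at 40.6, 37.6 and 37.1 CPM in the libraries labelled RPL3 KO (log2 fold change -0.86 ± 0.08, adjusted p = 2.3e-08), and with Act D at 51.7, 52.9 and 49.8 and 35.3, 33.9 and 35.4 CPM (log2 fold change -0.56 ± 0.08, adjusted p = 7.92e-06). HARS1 was at 110.1, 119 and 114 and 166, 123 and 121 CPM with vehicle (log2 fold change 0.26 ± 0.11, adjusted p = 0.0472) and at 128, 125 and 139.9 and 95.3, 102 and 118 CPM with Act D (log2 fold change -0.32 ± 0.11, adjusted p = 0.0178). Its difference between the lines turned from higher to lower, and the higher call with vehicle was lost without vehicle library 1 labelled RPL3 KO, without any of the 3 vehicle libraries of HCT 116p53-/- and under 4 other settings. The lower call with Act D was lost without Act D library 3 of HCT 116p53-/- or Act D library 1 labelled RPL3 KO.

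Genes around tRNA charging that are not members were taken from a separate list of 20. With vehicle 4 were up and 10 down in the libraries labelled RPL3 KO, with a median of -0.18. The share called, 14 of 20, was close to the 71.3% of all tested genes (35.1% higher and 36.2% lower). The largest log2 fold changes were those of DTD2, a proofreading deacylase (-2.11 ± 0.15), XPOT, the exportin that carries tRNA out of the nucleus (2.09 ± 0.08), and TARS3, a threonyl synthetase of the cytosol and nucleus (-1.79 ± 0.13). XPOT was at 125, 113 and 109 CPM in HCT 116p53-/- and at 479, 501 and 496 CPM in the libraries labelled RPL3 KO. With Act D present 4 were higher and 8 lower, beside 35.1% and 35.3% of all tested genes. The largest log2 differences were in PSTK, a kinase of the selenocysteine pathway (-2.01 ± 0.30), TARS3 (-1.86 ± 0.13) and XPOT (1.75 ± 0.08). Act D changed 1 of the 20 genes in HCT 116p53-/-, ANKRD16 (log2 fold change -0.56 ± 0.16, adjusted p = 0.0228), beside 18.7% of all tested genes. It changed 0 of 20 in the libraries labelled RPL3 KO with edgeR's quasi-likelihood test, beside 11.9% of all tested genes. There 2 had an unadjusted p under 0.05 and DESeq2 called 1.

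The integrated stress response and amino acid synthesis genes, a list of 32 of which 31 were tested (CBS was not), were set beside the synthetases. With vehicle 16 were up and 9 down in the libraries labelled RPL3 KO, with a median of 0.41, beside 35.1% and 36.2% of all tested genes. They were led on the log2 scale by PPP1R15A, a phosphatase subunit that ends the response (2.73 ± 0.12), DDIT4 (1.97 ± 0.13) and CHAC1, a glutathione-degrading enzyme (1.96 ± 0.19). With Act D present 11 were higher and 10 lower, beside 35.1% and 35.3% of all tested genes. The largest log2 differences were in ATF5 (-1.93 ± 0.13), PPP1R15A (1.92 ± 0.12) and DDIT4 (1.70 ± 0.13). ATF4 itself, named after its values were seen, was at 253, 252 and 221 CPM in HCT 116p53-/- with vehicle and at 566, 536 and 465 CPM in the libraries labelled RPL3 KO (log2 fold change 1.11 ± 0.09, adjusted p = 1.91e-09). These are RNA levels, and ATF4 is known to be controlled mainly in translation.

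With Act D 14 of the 31 genes fell and 1 rose in the libraries labelled RPL3 KO, with a median of -0.31. Among all tested genes 8.4% fell and 3.51% rose there. For HCT 116p53-/- 4 rose and 4 fell, with a median of -0.10, beside 7.59% and 11.1% of all tested genes. The list was not tested as a set. In the libraries labelled RPL3 KO the largest decreases were in CHAC1, from 24.1, 26.9 and 21.9 to 10.8, 7.19 and 6.49 CPM (log2 fold change -1.54 ± 0.19, adjusted p = 4.04e-05), in SLC7A11, a subunit of the cystine transporter (log2 fold change -0.81 ± 0.12, adjusted p = 0.000217), and in PSPH, the last enzyme of serine synthesis (log2 fold change -0.79 ± 0.13, adjusted p = 0.000626). ATF4 fell there from 566, 536 and 465 to 386, 409 and 392 CPM (log2 fold change -0.40 ± 0.08, adjusted p = 0.00423). In HCT 116p53-/- the largest changes were in SESN2, a stress-induced inhibitor of mTORC1, from 12.9, 15.8 and 17.3 to 38.6, 40.8 and 42.5 CPM (log2 fold change 1.41 ± 0.13, adjusted p = 1.45e-06), CHAC1 (log2 fold change -0.70 ± 0.22, adjusted p = 0.0294) and ATF5 (log2 fold change 0.67 ± 0.11, adjusted p = 0.0005). The responses differed between the lines for 5 of the 31 genes, beside 6.53% of all tested genes. They differed most for SESN2 (difference -1.95 ± 0.19, adjusted p = 1.62e-05), CEBPB (difference -1.35 ± 0.31, adjusted p = 0.013) and PPP1R15A (difference -0.81 ± 0.16, adjusted p = 0.00663). Of the 13 cytosolic synthetases on the ATF4 background list 4 fell with Act D in the libraries labelled RPL3 KO (CARS1, MARS1, SARS1 and YARS1), with a median of -0.25. In HCT 116p53-/- 0 of the 13 were called with edgeR's quasi-likelihood test, 4 had an unadjusted p under 0.05 and DESeq2 called 2.

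The response to Act D was also set against the length of the genes, since the annotated span of the members runs from 3.03 kb (MARS2) to 568 kb (FARS2), with 4 above 100 kb. In HCT 116p53-/- the log2 fold change fell with span over the 37 genes, with a Spearman coefficient of -0.55 (-0.73 over the 19 cytosolic and -0.59 over the 16 mitochondrial genes). Of the 4 genes above 100 kb FARS2, LARS2 and NARS2 fell, and WARS2 had a log2 fold change of -0.02 ± 0.16. In the libraries labelled RPL3 KO the coefficient was -0.01. Over all 15624 tested genes with coordinates it was -0.27 and -0.09, so that the sign in HCT 116p53-/- was shared with the transcriptome. The coefficients are across genes of the same libraries and are given as a description.

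**Figure D5:**
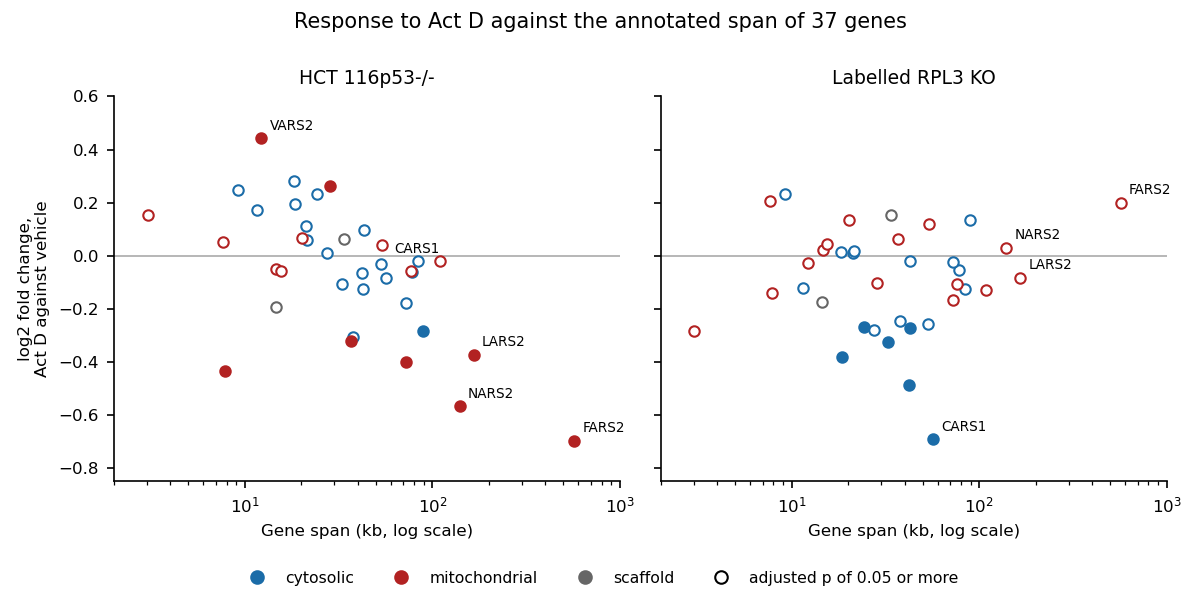
Log2 fold change with Act D against the annotated span of the gene (kb, log axis) for the 37 genes in HCT 116p53-/- (left) and in the libraries labelled RPL3 KO (right), coloured by compartment, with open points for an adjusted p of 0.05 or more. At the left FARS2, NARS2 and LARS2, the longest genes, lie at -0.70, -0.57 and -0.37, and at the right the same genes lie at 0.20, 0.03 and -0.08.

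Transcript values were given for 1 library, vehicle library 2 of HCT 116p53-/-. There a single transcript took a median of 87.2% of the count of a member, over 80% for 26 of the 37 genes, and under 50% for TARS1, HARS2 and VARS2. In TARS1 the leading transcript took 38.6% of the estimated count and 2 transcripts annotated for nonsense-mediated decay took 32.5% and 18.8%. These shares are RSEM estimates from shared reads in 1 library without a replicate. Posterior SDs of the gene counts reached 3.05% in SARS2 and 2.62% in VARS2 and were at most 0.39% in the other members, which is RSEM's own estimate of the uncertainty from shared reads.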

How the data were processed

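RNA was sequenced from 12 libraries in 4 groups of 3, labelled as biological replicates. The authors trimmed the reads, removed those from ribosomal RNA and PhiX, and used RSEM 1.2.25 to count the rest over the Ensembl annotation of hg38. The deposited files hold expected counts, which are estimates that need not be whole, and TPM, which RSEM divides by effective length. They also hold the posterior SD of each count as deposited, and FPKM columns that were not used. Of the 12 libraries, 1 was given per transcript and was summed to genes. RSEM was run with standard parameters, which do not use strand.

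Expected counts were rounded, and totals per library ran from 10087925 to 21138886. Genes were kept with filterByExpr, which left 15692 of 33990 genes with a count. TMM factors ran from 0.847 to 1.15. All 12 libraries entered 1 fit in edgeR 4.0.16 (R 4.3.3) with the quasi-likelihood test, a term for each group and no block, and p-values were adjusted over all genes by the Benjamini-Hochberg method, with calls at 0.05. Errors of log2 fold changes are standard errors, those of levels are SDs with n = 3, and intervals are at 95%. The fit was tested on simulated data. Alternatives were DESeq2 1.42.0, other scalings, filters, tests and thresholds, a block for the replicate number, and leaving out each library. Of 60617 identifiers 60261 matched GENCODE v44, whose coordinates are given, and promoter windows are from RefSeq GRCh38.p14.

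The members and lists were chosen with earlier results of these data known. All members may be named. Full values are given for the 4 called genes with the largest change in each direction and for every gene whose responses differed, and from the lists around charging and stress the 3 called genes with the largest change. ATF4 was chosen after its values were seen. The ATF4 background list was compiled from general knowledge.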

Additional observations from a re-analysis of the deposited data

Results flagged for a closer look

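Among the synthetases 5 genes responded differently to Act D in the libraries labelled RPL3 KO and in HCT 116p53-/-, as tested with the interaction term of edgeR's quasi-likelihood fit, beside 6.53% of all tested genes. The difference of log2 fold changes was -0.61 for CARS1, -0.58 for HARS1 and -0.50 for SARS1, all cytosolic, and 0.90 for FARS2 and 0.60 for NARS2, both mitochondrial. CARS1 and NARS2 passed an adjusted p of 0.05 in every setting that was run. HARS1 and FARS2 each lost the call without any of 9 single libraries, and SARS1 lost it without Act D library 1 of HCT 116p53-/-. The cause of these differences was not tested.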

How the results depend on the processing

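Of the calls between the lines 21 of 24 with vehicle and 19 of 25 with Act D passed an adjusted p of 0.05 in every setting, as did 4 of 9 Act D responses in HCT 116p53-/-, 2 of 6 in the libraries labelled RPL3 KO and 2 of 5 differences between the responses. When calls also had to reach an absolute log2 fold change of 1, 8 genes were called with vehicle, 8 with Act D, and 0 in either response or in their difference, since fewer genes can pass. In the libraries labelled RPL3 KO the count of 6 became 3 with upper-quartile scaling, 3 with the replicate block and 3 with only the groups compared. The count of 5 differences became 3 with library size scaling, 3 with the replicate block and 8 with the likelihood-ratio test. KARS1 reversed between the lines with Act D under library size scaling, from 0.01 to -0.24 (adjusted p = 0.0221 with edgeR), where the median of all genes also moved to -0.26. Leaving out each library in turn gave 23 to 26 calls with vehicle, 24 to 26 with Act D, 6 to 8 and 2 to 6 for the responses in HCT 116p53-/- and in the libraries labelled RPL3 KO, and 2 to 6 for their difference. The count of differences was 2 without Act D library 1 of HCT 116p53-/- and 3 without vehicle library 1 or 3 or Act D library 2 or 3 of that line, or vehicle library 1 or Act D library 1 labelled RPL3 KO. The cause of these changes was not tested.

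Samples with the same replicate number did not deviate together, with correlations of their deviations from -0.206 to 0.135, so the numbers were not read as pairs. With the replicate number as a block 23 genes were called with vehicle, 25 with Act D, 7 in the response of HCT 116p53-/- and 3 in that of the libraries labelled RPL3 KO, where HARS1, SARS1 and YARS1 lost the call, and 3 differences, where FARS2 and HARS1 did. Libraries of 10087925 to 21138886 counts and 3 per group limit what can be seen in low genes such as PARS2 and FARS2.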
